A study of Mus musculus with 24 samples.

Results

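Liver and duodenum of wild-type D2 mice were compared over all probe sets of the array, with 3 liver arrays against 3 duodenum arrays. These 6 of the 24 arrays of the series were chosen by strain, genotype and tissue as labelled, and no measured value entered the choice. D2 stands for DBA/2, an inbred strain, and the wild-type D2 mice were males of 7 weeks, purchased from a supplier, kept on an iron-containing standard diet and fasted before they were killed. The other arrays hold RNA of wild-type B6 (C57BL/6) mice and of Hfe-/- mice of both strains. Of these, the 6 wild-type B6 arrays (3 of liver and 3 of duodenum, from males of the same age, also purchased) were used to test whether a tissue difference seen in D2 differed in B6. RNA came from whole tissue, so that each signal sums over all cell types present, and fewer cells of a type and less RNA per cell cannot be told apart.

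Signals were read on an array of short oligonucleotides in which a group of probes, the probe set, reports a transcript. The authors' MAS5 method gave each probe set a signal on a linear scale and set every array to the same average. A signal of 20, near the middle of all probe sets, was taken here as the level under which a transcript was not reliably measured. A gene was represented by 1 probe set and called when its adjusted p was at most 0.01 and the tissues differed by at least 2-fold. Differences are liver minus duodenum, a standard deviation (SD) is over 3 arrays, and a fold is written "at least" where all 3 arrays of the lower tissue were under 20, in which case it is set against 20. Where only 1 or 2 arrays of the lower tissue were under 20, the fold was computed with signals under 20 set to 20. Since 3 mice of each strain and genotype were profiled, the liver and duodenum arrays of a group come from the same 3 mice, but the labels do not say that a shared number marks 1 mouse, so arrays were not paired and the p-values measure the spread between them. With 3 arrays against 3 an exact permutation test cannot go below p = 0.1, and the calls rest on the fit across all probe sets.

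The liver and the duodenum hold the opposite ends of iron balance. Enterocytes of the duodenum reduce dietary iron at the brush border, import it and pass it to blood through ferroportin, whereas hepatocytes store iron and secrete hepcidin, the peptide hormone that makes ferroportin disappear from cell surfaces. Hepatocytes also make most plasma proteins, bile acids and urea, and the duodenal wall holds the enzymes of digestion together with lymphocytes, plasma cells and Paneth cells that guard the epithelium.

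The 2 tissues were well separated on the arrays. Pearson correlations of log2 signals were 0.934 to 0.935 between liver arrays, 0.947 to 0.952 between duodenum arrays and 0.588 to 0.598 across tissues. The median signal was 15.8 to 19.2 on the liver arrays and 20.1 to 22.7 on the duodenum arrays, while the brightest 100 probe sets held 13.1 to 13.5% of all signal in liver and 9.75 to 10.5% in duodenum. No hybridization run held both tissues (the 3 duodenum arrays shared 1 run and the 3 liver arrays were in 3 runs), so run and tissue cannot be told apart.

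Of 13006 genes measured, 1755 (13.5%) were higher in liver and 2456 (18.9%) were higher in duodenum. For 8754 genes (67.3%) the 3 arrays of a tissue all lay on one side of the 3 arrays of the other. The median difference over genes was -0.16 on the log2 scale, which became 0.11 when each array was centred on its own median, and the share of called genes that were higher in liver was 41.7% as scaled by the authors and 54.2% after that centring. List medians given below are to be read against these medians of all genes. List counts are to be read against the 13.5% and 18.9% of all genes. At least 20 on all 3 liver arrays and under 20 on all 3 duodenum arrays were 444 genes, and the reverse held for 940 genes.

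**Figure D1:**
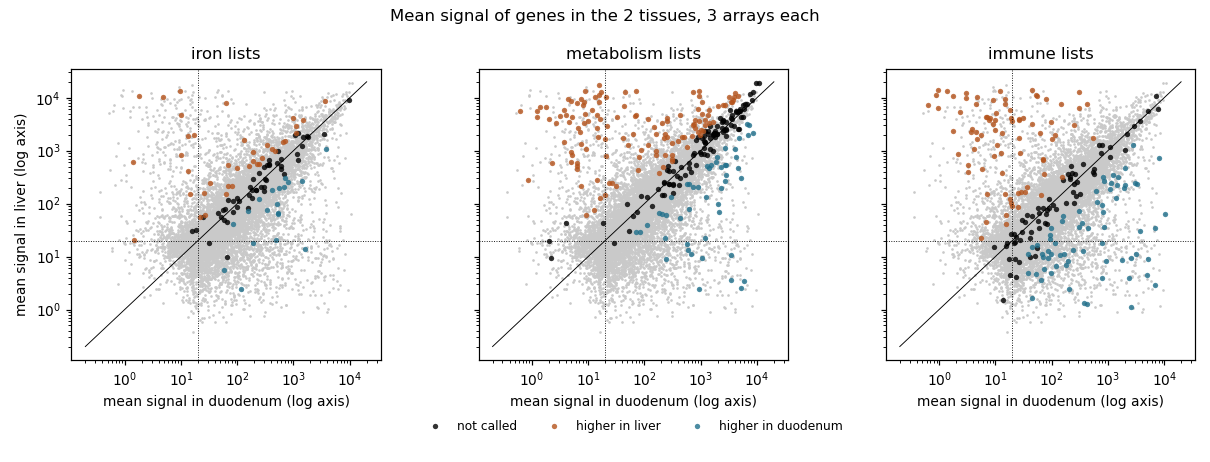
Mean MAS5 signal in duodenum (x axis) and in liver (y axis), both logarithmic, over 3 arrays each; grey points are all 13006 genes and larger points are members of the iron (left), metabolism (middle) and immune (right) lists, colored by call. Dotted lines mark a signal of 20 and the diagonal marks equal means. Of the 109 iron genes 38 are called toward liver and 19 toward duodenum, and several called genes lie under 20 in the other tissue.

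Among genes with at least 20 on all 6 arrays, the largest differences toward liver were those of Ces1c, a plasma carboxylesterase, Serpina1b, an inhibitor of neutrophil elastase, Hpd of tyrosine breakdown, Rbp4, the plasma carrier of retinol, and Ambp, a plasma proteinase inhibitor. Ces1c gave 10426, 9943 and 9608 on the liver arrays and 26.4, 31.7 and 23.4 on the duodenum arrays, a log2 difference of 8.53 (standard error 0.12, adjusted p = 7.79e-10). Serpina1b followed with a log2 difference of 8.25 (standard error 0.10, adjusted p = 3.43e-10) and Hpd with a log2 difference of 8.18 (standard error 0.15, adjusted p = 1.74e-09). In these genes the lowest liver array stood far above the highest duodenum array. Rbp4 differed by 215-fold and Ambp by 199-fold.

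The largest differences toward duodenum among such genes were those of Ada, adenosine deaminase, of Jchain, Igkv8-30 and Igha, parts of the antibodies of mucosal plasma cells, and of Ccl25, the chemokine that draws lymphocytes to the small intestine. Ada gave 27.6, 27.9 and 36.3 on the liver arrays and 6302, 5919 and 7747 on the duodenum arrays, a log2 difference of -7.77 (standard error 0.14, adjusted p = 1.74e-09). Jchain was 206-fold, Igkv8-30 175-fold, Igha 165-fold and Ccl25 122-fold higher in duodenum. Immunoglobulin probe sets can share signal between related segments, so the Igkv8-30 value may stand for several light chains.

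Transcripts seen on one side only were led in liver by Serpina1c, Fgb and Fga (chains of fibrinogen), Pzp, a plasma inhibitor of proteinases, and Bhmt, which remethylates homocysteine. Fgb gave 15290.3, 14216 and 13030.5 on the liver arrays and 0.674, 0.539 and 1.599 on the duodenum arrays, at least 707-fold higher in liver, and Serpina1c was at least 799.5-fold higher. Pzp, Bhmt and Fga were at least 707-fold, at least 677-fold and at least 674-fold higher. In duodenum the leading transcripts were Reg1, Cela3b, S100g, Dmbt1 and Prap1. S100g encodes a calcium-binding protein of the absorbing enterocyte and gave 0.618, 1.88 and 0.953 on the liver arrays and 7709, 8227 and 9029.6 on the duodenum arrays, at least 415-fold higher in duodenum. Dmbt1, a mucosal scavenger protein, was at least 337-fold and Prap1 at least 313-fold higher. Reg1 and Cela3b are made by pancreatic acinar cells and were at least 471-fold and at least 388-fold higher on the duodenum arrays.

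Markers of the labelled tissues were in place. Of 10 hepatocyte markers 9 were higher in liver, with Alb 651-fold and Ahsg at least 612-fold higher, while Hnf4a, a transcription factor of both epithelia, averaged 2521 ± 349 in liver and 1871 ± 111 in duodenum. Of 15 brush border markers 14 were higher in duodenum, among them Alpi (11.1 against 8136), Vil1 (at least 148-fold) and Cdx2 (at least 15.8-fold), and the other, Dpp4, averaged 685 ± 41.96 in liver and 656 ± 164 in duodenum. All 10 goblet cell markers, all 13 enteroendocrine markers and all 12 smooth muscle markers were higher in duodenum, as were 15 of 17 markers of stem cells and proliferation. Of 9 epithelial and bile duct markers 8 were higher in duodenum, and Krt18 averaged 1817 ± 79.4 in liver and 1466 ± 380.0 in duodenum. Of 9 sinusoidal endothelial markers 8 were higher in liver, among them Clec4g (at least 32.7-fold), and Lyve1 averaged 59.5 ± 13.8 in liver and 59.004 ± 12.4 in duodenum. Stellate cell and fibroblast markers were split, 2 of 9 higher in liver (Reln and Dcn) and 6 higher in duodenum. Of 7 neuron and glia markers Vip (at least 17.97-fold) and Elavl4 were higher in duodenum and Gfra1 (at least 28.9-fold) was higher in liver, although Elavl4 did not pass in 9 of the alternatives that keep all arrays.

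Markers of pancreatic acinar cells were bright on the duodenum arrays. All 15 were higher there, 11 of them were under 20 on every liver array, and their summed signal was 63384, 40981 and 87025 on duodenum arrays 1, 2 and 3 against 473 to 541 on the liver arrays. Duodenum array 2 also stood apart in Brunner gland and gastric-type markers, whose summed signal was 669, 16280 and 983 on arrays 1, 2 and 3. Gkn3 gave 52.1, 6807 and 85.98 and Tff2 234, 8297 and 438 on these arrays. Without duodenum array 2, 1740 genes were higher in liver and 2118 in duodenum, close to the 1713 and 2114 without array 1. The part of pancreatic tissue, Brunner glands or gastric tissue in the genes higher in duodenum was not tested.

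**Figure D2:**
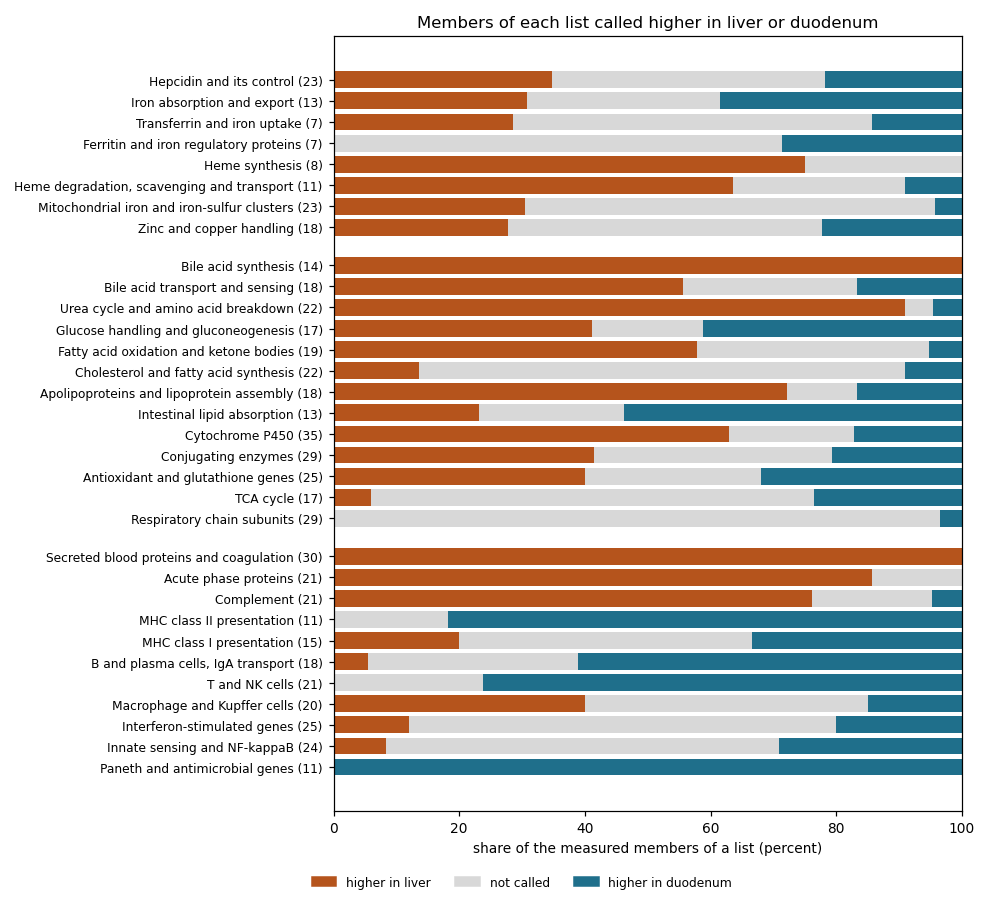
Share of the measured members of each iron (top), metabolism (middle) and immune (bottom) list that were called higher in liver, not called or called higher in duodenum, in percent, with the number of members measured in parentheses. Bile acid synthesis and secreted blood proteins are entirely on the liver side, Paneth genes entirely on the duodenum side, and 28 of 29 respiratory chain subunits were not called.

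Of 120 genes in 8 iron lists, 112 have a probe set of 1 symbol and 109 passed the filter on low signals. Of these 38 were higher in liver, above the share of all genes, 19 were higher in duodenum, near the share of all genes, and 52 did not pass. Hepcidin and its control formed the first list. Of its 23 members 8 were higher in liver, above the share of all genes, and 5 were higher in duodenum, near the share of all genes. The median difference was 0.38, the same with genes under 20 in 1 tissue set at their bound. The members higher in liver were the hepcidin genes Hamp and Hamp2, receptors and a protease of hepatocytes and transcription factors. Those higher in duodenum were general members of the BMP pathway.

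Hepcidin is encoded by Hamp, and mice carry another copy, Hamp2. Hamp gave 5043, 4952 and 4132 on the liver arrays and 9.56, 10.96 and 9.28 on the duodenum arrays, at least 235-fold higher in liver (adjusted p = 8.14e-10). Hamp2 gave 13527, 13282 and 12978 on the liver arrays and 11.6, 10.3 and 7.32 on the duodenum arrays, at least 663-fold higher in liver (adjusted p = 1.1e-09). Every duodenum array was under 20 for both, and the liver arrays of each lay close together. The copies are near-identical, and how much signal their probe sets share was not tested. Their promoters, shown because both genes were confined to liver at this level, matched at 227 of 247 positions (91.9%) over the 250 bases before the start. RefSeq promoters on build GRCm38.p6 are printed with a motif of GATA factors in capitals (AGATAA on either strand), which begins 128 bases before the start of Hamp and 125 bases before that of Hamp2.
Hamp (chr7:30944030-30944279, minus strand): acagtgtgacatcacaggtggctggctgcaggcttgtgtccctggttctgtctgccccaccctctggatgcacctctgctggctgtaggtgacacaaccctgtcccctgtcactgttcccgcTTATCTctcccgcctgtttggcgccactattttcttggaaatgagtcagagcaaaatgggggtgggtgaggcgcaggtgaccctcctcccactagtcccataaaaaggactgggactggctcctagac
Hamp2 (chr7:30924182-30924431, minus strand): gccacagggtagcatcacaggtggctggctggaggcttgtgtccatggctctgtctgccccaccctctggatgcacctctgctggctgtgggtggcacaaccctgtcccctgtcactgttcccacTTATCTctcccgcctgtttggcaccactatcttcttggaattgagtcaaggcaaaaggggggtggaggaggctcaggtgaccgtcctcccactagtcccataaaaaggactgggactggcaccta
The same letters lie in 11.2% of all supplied promoters (250 bases before to 50 after the start).

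Receptors that sense iron for hepcidin followed. Tfr2, the transferrin receptor of hepatocytes, gave 1783, 1787 and 2008 on the liver arrays and 9.403, 2.77 and 28.1 on the duodenum arrays, a log2 difference of 7.69 (standard error 0.67, adjusted p = 1.54e-05), or 6.37 with signals under 20 set to 20, where duodenum array 3 was the only one of its tissue above 20. Hjv, hemojuvelin, a co-receptor for BMP ligands, gave 667, 606 and 588 on the liver arrays and 1.0998, 1.19 and 1.92 on the duodenum arrays and was at least 30.97-fold higher in liver. Hfe, the class I-like protein that is lost in hemochromatosis, gave 437, 434 and 515 on the liver arrays and 105, 97.4 and 95.3 on the duodenum arrays, a log2 difference of 2.22 (standard error 0.12, adjusted p = 5.79e-07), and the tissues did not overlap. With all probe sets of Hfe averaged the difference was 2.10, adjusted p = 0.0166, and the call was lost. Tmprss6, the protease that cuts hemojuvelin, averaged 1961 ± 57.6 in liver and 16.98 ± 7.51 in duodenum (90.9-fold), and Cebpa, a transcription factor of hepatocytes, 1565 ± 248 in liver and 135 ± 5.85 in duodenum (11.5-fold). Atoh8, a transcription factor of the BMP response, was low on all arrays, 30.6, 16.6 and 15.2 on the liver arrays and 1.54, 1.45 and 1.47 on the duodenum arrays, and its call was lost when signals under 20 were set to 20 (0.21) and without any 1 of the liver arrays (adjusted p = 0.0101 to 0.0294).

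Ligands and signal carriers of the BMP pathway mostly did not pass or passed at small folds. Bmp6, the ligand known to report liver iron, gave 23.4, 21.1 and 49.98 on the liver arrays and 20.4, 14.6 and 20.1 on the duodenum arrays, adjusted p = 0.195. Bmp2 averaged 183 ± 38.9 in liver and 216 ± 9.35 in duodenum and Bmp4 45.5 ± 4.98 in liver and 66.3 ± 8.38 in duodenum, and neither passed. Bmpr1a, a type I receptor, was 2.33-fold and Smad1, which carries the signal to the nucleus, 2.33-fold higher in duodenum. Neo1, neogenin, which binds hemojuvelin, was 2.01-fold and Smad7, an inhibitory Smad, 2.04-fold higher in duodenum. Differences of this size depend on the scaling: the calls of Bmpr1a, Smad1, Neo1 and Smad7 were lost when arrays were centred on their medians. Neo1 (without liver or duodenum array 3) and Smad7 (without liver array 1 or duodenum array 2 or 3) also lost theirs with 1 array left out. Id1, a target of BMP signaling that serves many tissues, gave 63.4, 70.6 and 59.6 on the liver arrays and 634, 589.8 and 402 on the duodenum arrays, a log2 difference of -3.05 (standard error 0.18, adjusted p = 1.25e-06), and its call was kept in every alternative tried. Bmpr2, Acvr1, Acvr2a, Smad4, Smad5, Smad6 and Usf2 did not pass, with differences from -0.91 (Smad6) to 0.66 (Bmpr2).

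**Figure D3:**
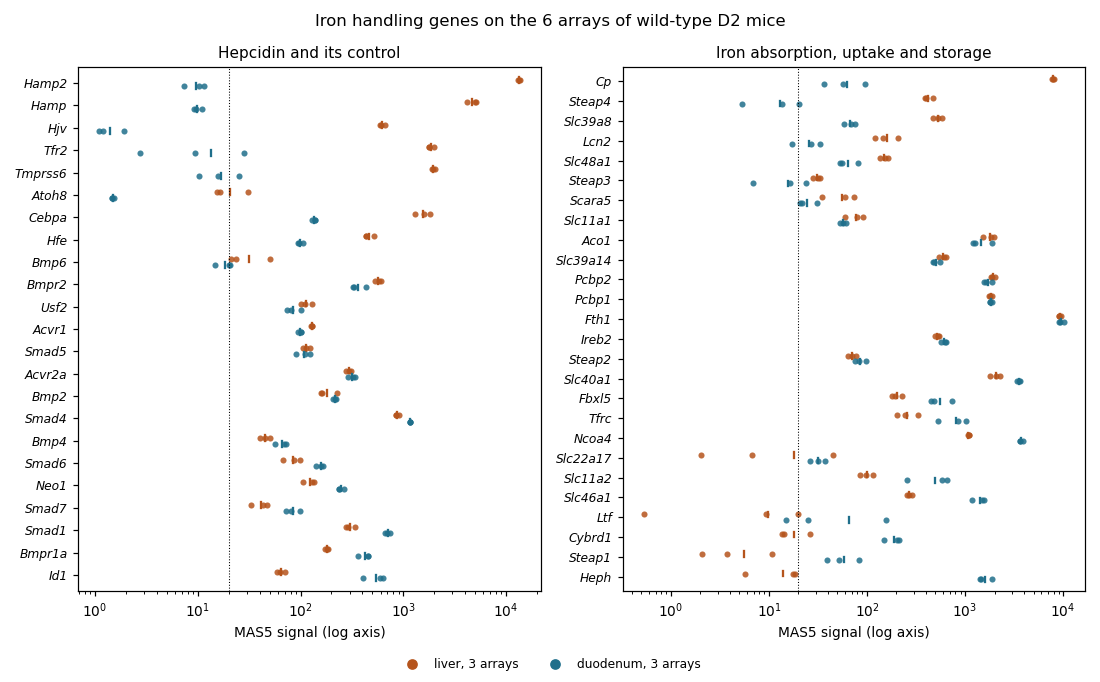
MAS5 signal (logarithmic x axis) of each measured member of 4 iron lists on the 3 liver and 3 duodenum arrays of wild-type D2 mice, ordered by difference; points are arrays, vertical ticks are means and the dotted line marks a signal of 20. Hamp and Hamp2 lie far to the right on every liver array and under 20 on every duodenum array, Heph shows the reverse, and the arrays of Fth1 overlap.

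Iron absorption and export were divided by step. Of 13 members 5 were higher in duodenum and 4 in liver, against 18.9% and 13.5% of all genes. The 5 toward duodenum included the reductase, the importers and the exit oxidase of the enterocyte. Cybrd1, the brush border ferric reductase, gave 14.2, 13.6 and 26.5 on the liver arrays and 149.8, 205 and 213 on the duodenum arrays, a log2 difference of -3.44 (standard error 0.29, adjusted p = 1.38e-05), or -3.09 with signals under 20 set to 20. Slc11a2, DMT1, the importer of ferrous iron, gave 84.6, 115 and 98.3 on the liver arrays and 584, 661 and 255 on the duodenum arrays and was 4.69-fold higher in duodenum (adjusted p = 0.000391). Duodenum array 3 was well below arrays 1 and 2 yet above every liver array. Slc46a1, a folate carrier that also moves heme, was 5.16-fold higher in duodenum.

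At the basal side, Heph, hephaestin, the membrane-bound ferroxidase that works with ferroportin, gave 18.6, 5.72 and 17.6 on the liver arrays and 1424, 1465 and 1902 on the duodenum arrays, at least 79.2-fold higher in duodenum (adjusted p = 1.1e-06). Cp, ceruloplasmin, the soluble ferroxidase of plasma, showed the mirror image with 8131, 7766 and 7952 on the liver arrays and 36.2, 57.4 and 94.8 on the duodenum arrays, a log2 difference of 7.09 (standard error 0.28, adjusted p = 1.15e-07). The 2 oxidases thus had opposite tissue patterns, each without overlap. Slc40a1, ferroportin itself, gave 2065, 2297 and 1796 on the liver arrays and 3527, 3371 and 3679 on the duodenum arrays, a log2 difference of -0.79 (standard error 0.10, adjusted p = 0.000165): the arrays did not overlap, but the difference was under 2-fold, and it passed with quantile normalization (-1.06). Steap1 was at least 2.76-fold higher in duodenum.

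Other carriers of iron were higher in liver. Slc39a8 (ZIP8), an importer of zinc, manganese and iron, averaged 525 ± 52.6 in liver and 67.3 ± 8.51 in duodenum (7.82-fold). Steap4, a metalloreductase, was 20.8-fold and Slc48a1, which moves heme out of endosomes, 2.41-fold higher in liver. Slc39a14 (ZIP14), the importer of iron not bound to transferrin, averaged 596 ± 47.8 in liver and 506 ± 42.5 in duodenum and did not pass (adjusted p = 0.0802). Steap2 and Slc11a1, the iron pump of macrophage endosomes, did not pass either, with differences of -0.26 and 0.40.

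Of 7 measured members of the transferrin list Tfr2 and Lcn2 were higher in liver and Tfrc in duodenum. Transferrin itself is not among these 7. Tfrc, the transferrin receptor of dividing cells, gave 242, 201 and 333 on the liver arrays and 1026, 843 and 533 on the duodenum arrays, a log2 difference of -1.61 (standard error 0.25, adjusted p = 0.000649), without overlap, although averaging all its probe sets gave -1.27 and lost the call (adjusted p = 0.0201). Lcn2, which binds iron-laden siderophores, averaged 159 ± 44.7 in liver and 25.7 ± 7.97 in duodenum (5.93-fold). Scara5, a ferritin receptor, averaged 55.7 ± 19.4 in liver and 24.5 ± 5.55 in duodenum (adjusted p = 0.018), and Steap3, the reductase of the transferrin cycle, 30.99 ± 2.59 in liver and 15.7 ± 8.54 in duodenum (adjusted p = 0.0707). Ltf, lactoferrin, ranged from 15.0 to 156 on the duodenum arrays, and Slc22a17 from 2.01 to 45.4 on the liver arrays, so that each varied widely within 1 tissue and did not pass.

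Of 7 measured genes of iron storage and its control 5 did not pass. The ferritin light chain is not among these 7. Fth1, the ferritin heavy chain, gave 9511, 9073 and 9070.5 on the liver arrays and 9170.0, 9321 and 10266 on the duodenum arrays, a log2 difference of -0.05 (standard error 0.07, adjusted p = 0.568), so that the tissues overlapped. Aco1 (IRP1) and Ireb2 (IRP2), which bind iron-responsive elements of messages, averaged 1787 ± 234 in liver and 1449 ± 391 in duodenum and 521 ± 28.1 in liver and 609 ± 36.04 in duodenum, and neither passed. Pcbp1 and Pcbp2, chaperones that deliver iron to ferritin, had differences of 0.0004 and 0.18. The 2 of 7 members that were higher in duodenum act on turnover. Ncoa4, the receptor that carries ferritin to lysosomes, gave 1095, 1093 and 1067 on the liver arrays and 3628, 3930.2 and 3680.5 on the duodenum arrays, a log2 difference of -1.79 (standard error 0.07, adjusted p = 1.14e-07). Fbxl5, which marks IRP2 for degradation when iron is plentiful, gave 230.2, 195 and 179.6 on the liver arrays and 481, 445 and 729 on the duodenum arrays and was 2.69-fold higher in duodenum.

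Heme synthesis leaned to liver, with 6 of 8 members higher there and a median of 1.70. Alas1, the rate-limiting first enzyme outside red cells, gave 4017, 3897 and 4436 on the liver arrays and 975, 1064 and 881 on the duodenum arrays, a log2 difference of 2.08 (standard error 0.09, adjusted p = 2.3e-07). Fech, which inserts iron into the ring at the last step, gave 1402, 1227 and 1293 on the liver arrays and 316, 336 and 345 on the duodenum arrays, 3.93-fold higher in liver. Between these ends, Uros was 3.304-fold, Urod 2.11-fold and Cpox 3.22-fold higher, Urod not with quantile normalization, and Alad (difference 0.88) and Ppox (-0.19) did not pass. Alas2, the red cell form, gave 773, 704 and 1018 on the liver arrays and 3.33, 3.64 and 22.6 on the duodenum arrays, a log2 difference of 6.98 (standard error 0.64, adjusted p = 2.19e-05), or 5.30 with signals under 20 set to 20. Of 7 erythroid markers 5 have a probe set of 1 symbol, and 3 passed the filter on low signals. Alas2 is 1 of these 3, of which 2 were called toward liver. Klf1 averaged 73.2 ± 6.002 in liver and 7.98 ± 1.74 in duodenum, and Slc4a1 24.3 ± 2.91 in liver and 12.04 ± 3.78 in duodenum. The summed signal of the 3 measured markers was 799 to 1125 in liver and 20.98 to 44.1 in duodenum. This sum includes Alas2, which makes up most of it in liver, so it adds little to the Alas2 values. The part of blood cells in the Alas2 difference was not tested.

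Heme breakdown and scavenging also leaned to liver, 7 of 11 members with a median of 1.36. Hpx, hemopexin, the plasma carrier of heme, gave 10941, 10703 and 10926 on the liver arrays and 0.899, 0.396 and 4.01 on the duodenum arrays, at least 543-fold higher. Hp, haptoglobin, which binds free hemoglobin, gave 10612, 9624 and 10443 on the liver arrays and 1.46, 10.6 and 2.31 on the duodenum arrays, at least 511-fold higher. Their cellular receptors went the same way, Cd163 for the hemoglobin complex at 7.41-fold and Lrp1 for the heme complex at 2.57-fold, the latter not called with all its probe sets averaged (0.93). Blvrb, a biliverdin reductase, averaged 954 ± 49.5 in liver and 191 ± 13.5 in duodenum (4.99-fold), and Flvcr2 was 2.65-fold higher. Hmox1, the inducible heme oxygenase, gave 60.5, 65.5 and 58.95 on the liver arrays and 21.9, 19.04 and 37.9 on the duodenum arrays, a log2 difference of 1.29 (standard error 0.30, adjusted p = 0.0056), or 1.27 with signals under 20 set to 20, and this call was lost in 5 of the alternatives that keep all arrays and when liver array 1, 2 or 3 or duodenum array 1 or 2 was left out (adjusted p = 0.0168 to 0.0214). Hmox2 (difference 0.86), Blvra (-0.34) and the exporter Abcg2 (-0.83) did not pass. The single member toward duodenum was Flvcr1, a heme exporter, with 56.5, 69.2 and 76.1 on the liver arrays and 531, 479 and 561 on the duodenum arrays, a log2 difference of -2.97 (standard error 0.14, adjusted p = 3.28e-07).

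Of 23 genes of mitochondrial iron and iron-sulfur cluster assembly 7 were higher in liver and 1 in duodenum, against 13.5% and 18.9% of all genes. The median was 0.67, and 15 did not pass, near the share of all genes. Sfxn2, a mitochondrial carrier, stood apart with 250.2, 239 and 251 on the liver arrays and 31.9, 35.03 and 29.98 on the duodenum arrays, a log2 difference of 2.93 (standard error 0.15, adjusted p = 4.2e-07). Abcb6, a porphyrin transporter, was 3.42-fold, Nubpl 2.72-fold, Fdx1, the ferredoxin that feeds electrons to cluster assembly, 2.69-fold and the sulfur donor Nfs1 2.303-fold higher in liver, Nfs1 not with all probe sets averaged (0.78). The scaffold Iscu (2.11-fold) and Glrx5 (2.02-fold) passed narrowly and not with quantile normalization, nor without liver array 3, when both were just under 2-fold, and Glrx5 also without liver array 1 or duodenum array 2 or 3. Hscb, a cochaperone, was 2.18-fold higher in duodenum as scaled by the authors and did not pass with quantile normalization or median centring. Slc25a37 and Slc25a28, the mitoferrins, had differences of -0.17 and -0.82. Lyrm4, Isca1, Isca2, Iba57, Hspa9, Abcb8, Abcb10, Sfxn1, Nfu1, Bola3, Nubp1, Ciao1 and Ciapin1 lay between -0.49 (Abcb10) and 0.89 (Bola3).

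Of 18 zinc and copper genes 5 were higher in liver, above the share of all genes, and 4 were higher in duodenum, near the share of all genes. Metallothioneins bind both metals, and Mt1 averaged 8726 ± 1169 in liver and 3606 ± 564 in duodenum (2.43-fold, a call lost with quantile normalization at 0.92) and Mt2 3860.1 ± 639 in liver and 1494 ± 157 in duodenum (2.57-fold). The zinc exporter Slc30a1 was 2.49-fold, and the copper chaperones Atox1 and Ccs were 2.203-fold and 2.63-fold higher in liver, Atox1 not with all probe sets averaged (0.69). Toward duodenum, Slc39a5 (ZIP5), a basolateral zinc importer, gave 7.58, 14.1 and 39.9 on the liver arrays and 498, 527 and 469 on the duodenum arrays (19.8-fold). Slc30a2 was at least 5.73-fold and Slc30a10, a manganese exporter, 3.27-fold higher. The copper pumps parted: Atp7a, which exports copper from the enterocyte, gave 67.97, 91.6 and 69.9 on the liver arrays and 319, 343 and 361 on the duodenum arrays, a log2 difference of -2.17 (standard error 0.15, adjusted p = 3.09e-06), and Atp7b, which loads ceruloplasmin in liver, averaged 86.6 ± 16.2 in liver and 98.3 ± 5.76 in duodenum and did not pass. Mtf1, Slc39a4, Slc39a1, Slc39a7, Slc30a5, Slc30a7, Slc31a1 and Slc31a2 did not pass, with differences from -0.91 (Slc30a5) to 0.65 (Slc39a1).

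Metabolism was measured over 13 lists with 278 distinct genes, of which 126 were higher in liver, well above the 13.5% of all genes, 49 were higher in duodenum, near the 18.9% of all genes, and 103 did not pass. Bile acid synthesis stood wholly on the liver side, with all 14 measured members higher and a median of 5.83 (5.07 at the bound). Cyp7a1, the rate-limiting enzyme, was at least 91.5-fold higher, Cyp8b1, which directs the pathway to cholic acid, at least 223-fold, Cyp27a1 17.2-fold and Hsd3b7 14.5-fold. Slc27a5 and Baat, which activate bile acids and join them to taurine, were at least 288-fold and at least 54.05-fold higher. Akr1c6 was at least 340.3-fold higher. The smallest differences were those of Hsd17b4 and Scp2, peroxisomal proteins of broad use, at 3.89-fold and 2.92-fold.

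Promoters of the liver and duodenum genes are illustrated by 4 examples from RefSeq (GRCm38.p6, 250 bases before the start), a pair with the HNF1 letters GTTAATNAT and a pair with the HNF4 letters CAAAGTCCA, either strand, in capitals. Alb and Fga were liver genes, whereas the HNF4 pair holds 1 gene of each tissue, Cyp8b1 of liver and Alpi, intestinal alkaline phosphatase, of duodenum.
Alb (chr5:90460620-90460869, plus strand): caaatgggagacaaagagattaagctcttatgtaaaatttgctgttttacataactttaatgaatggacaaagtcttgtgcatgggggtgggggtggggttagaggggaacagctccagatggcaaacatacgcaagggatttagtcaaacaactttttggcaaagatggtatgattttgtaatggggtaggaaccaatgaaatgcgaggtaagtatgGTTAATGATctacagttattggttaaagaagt
Fga (chr3:83025903-83026152, plus strand): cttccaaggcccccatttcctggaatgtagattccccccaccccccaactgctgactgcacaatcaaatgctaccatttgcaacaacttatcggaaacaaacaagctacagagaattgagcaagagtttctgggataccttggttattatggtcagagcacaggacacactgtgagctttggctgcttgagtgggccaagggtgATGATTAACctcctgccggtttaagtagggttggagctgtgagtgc
Cyp8b1 (chr9:121916306-121916555, minus strand): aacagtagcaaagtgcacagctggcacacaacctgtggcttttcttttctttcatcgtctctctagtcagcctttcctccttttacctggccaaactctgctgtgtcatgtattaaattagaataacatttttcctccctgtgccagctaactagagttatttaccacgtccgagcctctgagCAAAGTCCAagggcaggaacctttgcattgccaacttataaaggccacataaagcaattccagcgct
Alpi (chr1:87101607-87101856, minus strand): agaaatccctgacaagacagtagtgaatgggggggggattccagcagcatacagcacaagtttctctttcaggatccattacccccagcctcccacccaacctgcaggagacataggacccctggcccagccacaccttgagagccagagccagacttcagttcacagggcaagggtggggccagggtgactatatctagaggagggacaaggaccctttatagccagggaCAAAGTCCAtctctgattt
The HNF1 letters lay in 1.8% of 1835 promoters of genes higher in liver, 0.754% of 2520 promoters of genes higher in duodenum, 0.31% of 9045 promoters of genes not called and 0.801% of all 32851 supplied promoters. For the HNF4 letters these shares were 1.14%, 0.992%, 0.332% and 0.475%, with the duodenum genes close to the liver genes. CDX2 letters (TTTATGG or TTTATTG) lay in 4.69%, 5.24%, 4.06% and 7.2%, and AGATAA in 8.66%, 8.06%, 6.56% and 11.2%. These are counts of letters with no test, and the windows cover 250 bases before to 50 after a start.

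Bile acid carriers marked the 2 poles of their circulation. Slc10a1, the uptake carrier of hepatocytes, gave 8035, 7414 and 6776 on the liver arrays and 6.48, 5.53 and 11.97 on the duodenum arrays, at least 369.5-fold higher in liver, and Slco1b2, Abcb11 (the canalicular bile salt pump) and Abcb4 were at least 241-fold, at least 73.4-fold and 128-fold higher. Slc51a and Slc51b, the subunits of the basolateral exporter of enterocytes, were at least 30.2-fold and at least 11.98-fold higher in duodenum. Abcg5, a sterol exporter, was 2.83-fold higher in duodenum, and its partner Abcg8 averaged 326 ± 19.5 in liver and 384 ± 54.7 in duodenum. Nr1h4 (FXR), the bile acid receptor, was 6.24-fold higher in liver and Abcc3 averaged 1602 ± 101 in liver and 815 ± 51.04 in duodenum. In all, 10 of 18 members were higher in liver, above the share of all genes, and 3 were higher in duodenum, near the share of all genes.

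Urea cycle and amino acid genes were higher in liver in 20 of 22 cases, with a median of 5.27. Arginase was divided by isoform. Arg1, the enzyme of the urea cycle, gave 10395, 9723 and 10773 on the liver arrays and 17.3, 19.8 and 24.9 on the duodenum arrays, a log2 difference of 8.97 (standard error 0.13, adjusted p = 9.82e-10), or 8.90 with signals under 20 set to 20. Arg2, its mitochondrial relative, gave 3.93, 1.18 and 2.55 on the liver arrays and 4927, 4588 and 5817 on the duodenum arrays, at least 254-fold higher in duodenum (adjusted p = 4.12e-08). The early steps of the cycle were present in both tissues: Cps1 averaged 8365 ± 388 in liver and 3658 ± 223 in duodenum (2.29-fold) and Otc 3525 ± 174 in liver and 1666 ± 239.9 in duodenum (2.13-fold), and both calls were lost with quantile normalization. Asl was 33.1-fold higher in liver, and the ornithine carrier Slc25a15 did not pass (difference 0.56). Mat1a and Gnmt of methionine metabolism were at least 442-fold and 469-fold higher, the latter with 1 duodenum array above 20. Cth, which makes cysteine, was 4.598-fold higher, and Fah of tyrosine breakdown 67.2-fold.

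Glucose genes were split evenly, 7 toward each tissue of 17. The makers of glucose were higher in liver, with Pck1 at 6036 ± 773 in liver and 915 ± 782 in duodenum (8.23-fold), Fbp1 at 11.8-fold, Pcx at 7.91-fold, G6pc at 13.1-fold and its partner Slc37a4 at 3.97-fold. Glycogen genes Gys2 and Pygl were at least 48.1-fold and 32.6-fold higher. Toward duodenum, Slc5a1 (SGLT1), the sodium-driven glucose carrier of the brush border, gave 9.54, 11.9 and 10.5 on the liver arrays and 3571, 3065 and 3882 on the duodenum arrays, at least 174-fold higher. Slc2a5, the fructose carrier, was 7.77-fold and the glycolytic Pkm and Aldoa 51.4-fold and 2.62-fold higher. Pklr, which the liver is known for, was 2.28-fold higher in duodenum, a call lost with median centring. Hk1 and Hk2 were 2.36-fold and 3.04-fold higher in duodenum. Slc2a2 (GLUT2), the carrier that serves both tissues, averaged 2937 ± 232 in liver and 1927 ± 489.9 in duodenum, and Khk, fructokinase, 1925 ± 87.4 in liver and 1165 ± 80.9 in duodenum. Neither passed.

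Of 19 genes of fatty acid oxidation 11 were higher in liver. Among peroxisomal and omega-oxidation enzymes, Cyp4a14 was at least 399-fold, Acaa1b 14.3-fold and Ehhadh 4.08-fold higher in liver. Ppara, the receptor that controls them, gave 3996, 3907 and 3520.4 on the liver arrays and 781, 796 and 789 on the duodenum arrays, a log2 difference of 2.27 (standard error 0.08, adjusted p = 4.55e-08). Of the mitochondrial steps, Acadm was 3.51-fold, Cpt1a 3.26-fold and Acadvl 2.29-fold higher (Acadvl not with quantile normalization), and Hadh, Hadhb and Acaa2 did not pass (differences 0.15, 0.54 and 0.80). Pdk4, which spares glucose in fasting, gave 70.3, 80.1 and 51.1 on the liver arrays and 127, 155 and 257 on the duodenum arrays and was 2.596-fold higher in duodenum, a call lost when signals under 20 were set to 20 (adjusted p = 0.0185).

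Cholesterol and fatty acid synthesis had 17 of 22 members not called, against 8795 of all 13006 genes, and a median of 0.08. Scd1, the desaturase, gave 14439.6, 12566 and 13247 on the liver arrays and 69.2, 122 and 17.7 on the duodenum arrays, a log2 difference of 7.98 (standard error 0.57, adjusted p = 4.22e-06), or 7.92 with signals under 20 set to 20, the one large difference of this list. Fdft1 (2.67-fold) and Sc5d (3.43-fold) were also higher in liver, and Sqle, squalene epoxidase, (3.22-fold) and Elovl6 (3.53-fold) were higher in duodenum. Hmgcs1 averaged 1064 ± 105 in liver and 1445 ± 137 in duodenum, Me1 920.3 ± 35.9 in liver and 762 ± 125 in duodenum and Acly 632 ± 30.5 in liver and 352 ± 54.96 in duodenum, and none of these passed.

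Apolipoproteins were higher in liver in 13 of 18 cases. Apoh, Apoc1 and Apoa2 were on the liver side, Apoh at least 565-fold and Apoc1 at least 478-fold higher and Apoa2 at 17226 against 15.7. Apoe differed by 17.5-fold and Apoc3 by 3.295-fold. Apoa1, made by both tissues, averaged 19111 ± 701 in liver and 10920.0 ± 1723 in duodenum and did not pass. Apob differed by 2.61-fold, a call lost with quantile normalization. Toward duodenum were Apoa4 (2.12-fold), a chylomicron protein, Mttp (2.74-fold), which loads lipid onto apolipoprotein B, and Apobec1 (3.895-fold), which edits its message. Apoa4 did not pass with median centring.

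Of 13 genes of intestinal lipid uptake 7 were higher in duodenum. Fabp2 gave 2251, 2047 and 2103 on the liver arrays and 8836, 7646 and 8782 on the duodenum arrays, a log2 difference of -1.98 (standard error 0.08, adjusted p = 1.7e-07). Dgat1 was 10.2-fold, Slc27a4 9.39-fold, Mogat2 at least 46.1-fold and Npc1l1, the cholesterol importer, 29.9-fold higher. The other triglyceride enzyme, Dgat2, was 2.66-fold higher in liver, as were Scarb1 (4.44-fold) and Agpat2 (2.01-fold). Fabp1, shared by both tissues, averaged 18781 ± 524 in liver and 9542 ± 742 in duodenum and Acsl5 2568 ± 84.3 in liver and 4787 ± 553 in duodenum, and neither passed. Clps, counted in this list, is also an acinar marker.

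Of 35 cytochrome P450 genes 22 were higher in liver, above the share of all genes, and 6 were higher in duodenum, near the share of all genes. Cyp2e1, which oxidises ethanol, gave 13423, 12688 and 12300.3 on the liver arrays and 11.97, 25.2 and 12.7 on the duodenum arrays, a log2 difference of 9.68 (standard error 0.25, adjusted p = 8.62e-09), or 9.21 with signals under 20 set to 20. Cyp2f2, Cyp1a2 and Cyp2c50 were at least 465-fold, at least 213-fold and at least 277-fold higher. The members toward duodenum belonged to the same families. Cyp2c65 gave 6.23, 3.28 and 0.731 on the liver arrays and 5388, 6143 and 6111 on the duodenum arrays, at least 294-fold higher in duodenum, and Cyp2c55 was 20.1-fold, Cyp2b10 10.8-fold, Cyp3a13 4.94-fold, Cyp4b1 4.47-fold and Cyp2s1 27.9-fold higher. Cyp3a11, the main drug-oxidising enzyme of both tissues, averaged 11941 ± 128 in liver and 7517 ± 1052 in duodenum and did not pass. Members of these families are close in sequence, and signal shared between their probe sets was not tested.

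Of 29 conjugating enzymes 12 were higher in liver, above the share of all genes, and 6 were higher in duodenum, near the share of all genes. In liver, Ugt2b1 was at least 288-fold, Gstp1 2.36-fold, Ugt2b5 2.84-fold and Sult1a1 71.4-fold higher. In duodenum, Gstm3 was 17.03-fold, Gsta4 5.39-fold, Gsto1 3.76-fold, Sult1b1 11.6-fold, Sult1d1 2.33-fold and Ugt2b38 30.2-fold higher. Gstm1 averaged 5555 ± 351 in liver and 4300.3 ± 1134 in duodenum and did not pass.

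Antioxidant genes were divided between 10 toward liver and 8 toward duodenum of 25. On the liver side were catalase, Cat, at 7057 ± 94.6 in liver and 2058 ± 488 in duodenum (3.497-fold), the peroxidase Gpx1 at 2.47-fold, the superoxide dismutase Sod2 at 2.42-fold and Gclc, the rate-limiting step of glutathione synthesis, at 4.297-fold. On the duodenum side stood Nfe2l2 (NRF2), the transcription factor of the oxidant response, with 518, 464 and 474 on the liver arrays and 2492, 2264 and 2111 on the duodenum arrays, a log2 difference of -2.24 (standard error 0.09, adjusted p = 1.28e-07). Some of its known targets, Nqo1 (8.13-fold), Txnrd1 (3.18-fold), Srxn1 (2.46-fold) and Txn1 (2.29-fold), were also higher in duodenum. Others were not: Gclc was higher in liver, and Gclm averaged 841 ± 74.6 in liver and 723 ± 60.1 in duodenum. The activity of NRF2 in either tissue was not tested. Gpx2, the gastrointestinal peroxidase, was at least 51.5-fold, Gpx3 9.57-fold and Xdh 7.94-fold higher in duodenum. Gpx4 averaged 2728 ± 302 in liver and 2368 ± 180.0 in duodenum and did not pass.

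Energy metabolism was measured by subunits of the respiratory chain and by TCA cycle genes. Of 29 respiratory chain subunits 28 did not pass, against 8795 of all 13006 genes, with a median of 0.14 and a range from -1.57 to 0.91. The exception, Cox7c, was low on its probe set (28.7 ± 6.19 in liver and 84.1 ± 8.63 in duodenum). Uqcrb averaged 12772 ± 530.1 in liver and 8566 ± 308 in duodenum, Cox5b 7178 ± 196 in liver and 5610.4 ± 299 in duodenum and Atp5b 6109 ± 383 in liver and 4993 ± 215 in duodenum. In the TCA cycle 12 of 17 genes did not pass, near the share of all genes. Cs, citrate synthase, gave 583, 551 and 467 on the liver arrays and 2848, 2641 and 3005 on the duodenum arrays, a log2 difference of -2.41 (standard error 0.10, adjusted p = 1.61e-07), and Mdh2 was 3.42-fold, Ogdh 2.99-fold and Idh3a 2.498-fold higher in duodenum. Idh2 was 2.01-fold higher in liver, a call lost in 3 of the alternatives that keep all arrays. Sdha and Sdhb averaged 3475 ± 231 in liver and 2779 ± 51.6 in duodenum and 4033 ± 261 in liver and 3560.5 ± 84.6 in duodenum, and neither passed.

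Immune and plasma protein genes, 217 distinct members of 11 lists, divided by kind. Of these 81 were higher in liver and 68 in duodenum, both above the shares of all genes (13.5% and 18.9%), and 68 did not pass. The 81 include 30 blood and coagulation proteins, so they do not count immune genes alone. Soluble proteins of the plasma were on the liver side. All 30 secreted blood and coagulation proteins were higher there, with a median of 9.18 (7.74 at the bound). Ahsg, Fgg and F2 (prothrombin) were at least 612-fold, at least 565-fold and at least 454-fold higher, Ttr, transthyretin, was 55.5-fold higher, and the smallest difference was that of Pros1, protein S (2.06-fold).

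Of 21 acute phase genes 18 were higher in liver. Orm1 was at least 362-fold, Mbl2 at least 219-fold, Apcs 131-fold, Serpina3n 176-fold and Crp 37.9-fold higher. Saa1, which inflammation induces, gave 765, 939 and 3236 on the liver arrays and 1.399, 8.68 and 4.02 on the duodenum arrays and was at least 66.2-fold higher, with liver array 3 well above the other 2. Stat3, Socs3 and Cd14 did not pass, with differences of 0.09, -0.98 and -0.82. Complement followed, 16 of 21 members, with C9 at least 311-fold, C8a at least 254-fold, C4bp at least 217-fold, Cfi 61.98-fold and Serping1 21.1-fold higher. C1qa, C1qb and C1qc, which macrophages make, averaged 357 ± 33.3 in liver and 258 ± 35.99 in duodenum, 316 ± 76.9 in liver and 216 ± 28.4 in duodenum and 284 ± 46.1 in liver and 161 ± 31.4 in duodenum and did not pass. The single member toward duodenum was Cd55, a membrane shield against complement, with 33.8, 47.7 and 46.2 on the liver arrays and 276, 409 and 362 on the duodenum arrays, a log2 difference of -3.03 (standard error 0.20, adjusted p = 2.42e-06).

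Antigen presentation by class II molecules was on the duodenum side. Of 11 class II presentation genes 9 were higher in duodenum, with a median of -3.03. H2-Aa gave 167, 306 and 235 on the liver arrays and 3148, 1924 and 4689 on the duodenum arrays, a log2 difference of -3.73 (standard error 0.31, adjusted p = 1.24e-05). Cd74, the invariant chain, gave 209.6, 267 and 248 on the liver arrays and 2809, 1993 and 4289 on the duodenum arrays and was 11.99-fold higher. H2-Ab1, H2-Ea and H2-Eb1 were 10.1-fold, 8.59-fold and 9.199-fold higher, and H2-DMa, which loads peptide, 8.16-fold. Ctss and Ifi30, the lysosomal protease and reductase, were 4.29-fold and 6.34-fold higher. Ciita, the master regulator, gave 7.51, 19.996 and 1.57 on the liver arrays and 43.7, 35.8 and 45.2 on the duodenum arrays (adjusted p = 0.0198) and H2-Oa averaged 7.96 ± 7.07 in liver and 26.5 ± 10.02 in duodenum, both at low signal and not called. Genes of B and plasma cells (11 of 18) and of T and NK cells (16 of 21) were also higher in duodenum, and the part of such cells in the class II difference was not tested.

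Of 15 class I presentation genes 3 were higher in liver and 5 in duodenum, against 13.5% and 18.9% of all genes. The classical heavy chains and their partner did not pass. H2-K1 gave 3756, 3433 and 3702 on the liver arrays and 4115, 3390.2 and 3752 on the duodenum arrays, a log2 difference of -0.04 (standard error 0.09, adjusted p = 0.704), and H2-D1 averaged 5585 ± 189 in liver and 5230.3 ± 201 in duodenum and B2m 10905 ± 509.8 in liver and 7298 ± 879.9 in duodenum. The immunoproteasome and peptide pump were higher in duodenum, Psmb8 at 3.495-fold, Psmb9 at 4.31-fold, Psmb10 at 4.61-fold and Tap2 at 4.03-fold. Nonclassical molecules went both ways: H2-Q10, which hepatocytes secrete, was 183-fold, and Cd1d1 71.03-fold higher in liver, while H2-T3, the thymus leukemia antigen of intestinal epithelium, was at least 44.7-fold higher in duodenum. Nlrc5, a regulator of class I genes, was 2.34-fold higher in liver, and Psme1 averaged 1040.0 ± 88.6 in liver and 2038 ± 199.6 in duodenum.

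Of 18 genes of B cells, plasma cells and IgA transport 11 were higher in duodenum. Igha, the IgA heavy chain, gave 53.7, 59.9 and 76.9 on the liver arrays and 10588, 9756 and 10813 on the duodenum arrays, a log2 difference of -7.37 (standard error 0.13, adjusted p = 1.63e-09). Mzb1 (13.3-fold), Ccl28 (at least 12.1-fold), Ighm (3.32-fold) and Pou2af1 (at least 8.94-fold) were also higher there. Pigr, the receptor that carries IgA across epithelium, averaged 6183 ± 147 in liver and 7791 ± 401 in duodenum and Xbp1 2891 ± 100.3 in liver and 2945 ± 122 in duodenum, and neither passed. Sdc1, a plasma cell marker that hepatocytes also make, was 3.24-fold higher in liver. B cell genes proper were low: Ms4a1 (CD20) gave 14.1, 22.9 and 16.2 on the liver arrays and 3.79, 36.3 and 7.89 on the duodenum arrays, with overlap.

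**Figure D4:**
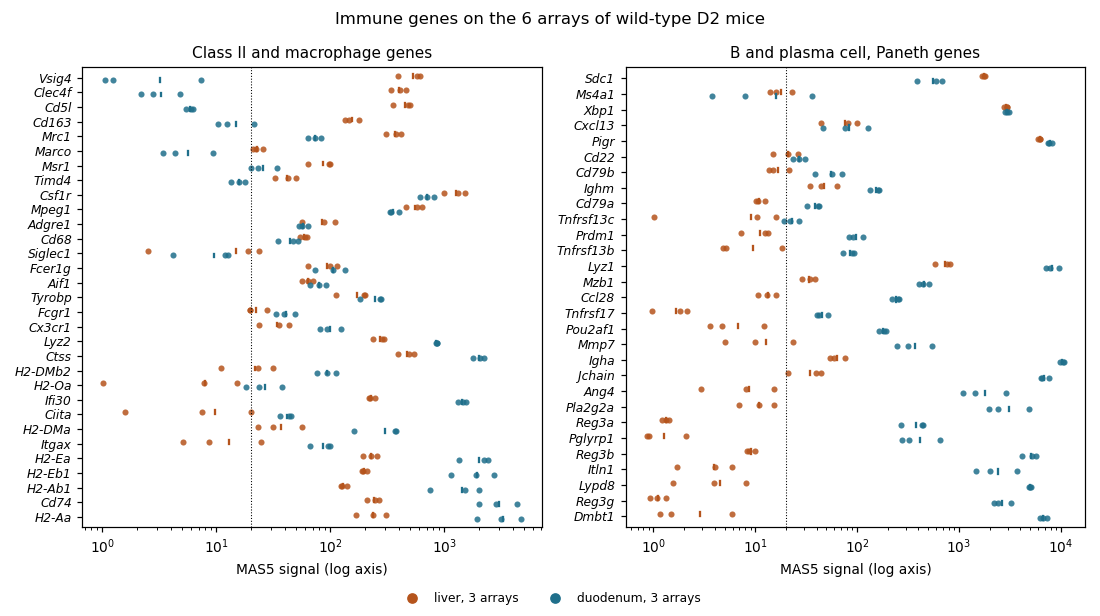
MAS5 signal (logarithmic x axis) of class II presentation and macrophage genes (left) and of B and plasma cell and Paneth genes (right) on the 3 liver and 3 duodenum arrays, ordered by difference; points are arrays, vertical ticks are means and the dotted line marks a signal of 20. Kupffer cell genes such as Clec4f and Vsig4 are higher in liver and class II genes such as H2-Aa higher in duodenum, and Paneth genes other than Lyz1 and 1 array of Mmp7 are under 20 in liver.

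T and NK cell genes were higher in duodenum in 16 of 21 cases. Granzymes of intraepithelial lymphocytes led, Gzma with 10.9, 9.19 and 8.37 on the liver arrays and 3059, 1675 and 2871 on the duodenum arrays, at least 122-fold higher, and Gzmb at least 37.4-fold higher. Ccl5 was 33.6-fold, Cd7 at least 9.97-fold, Itgae, the integrin that holds lymphocytes in epithelium, at least 9.34-fold, Cd3g at least 8.03-fold and Ccr9, the receptor for Ccl25, at least 5.72-fold higher. Prf1 gave 22.4, 14.99 and 33.96 on the liver arrays and 25.6, 21.8 and 23.3 on the duodenum arrays and Zap70 averaged 82.6 ± 22.3 in liver and 70.9 ± 27.3 in duodenum, and neither passed.

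Of 20 macrophage genes 8 were higher in liver, above the 13.5% of all genes, and 3 were higher in duodenum, near the 18.9% of all genes. Those of Kupffer cells were on the liver side. Clec4f gave 337, 457 and 407 on the liver arrays and 2.797, 4.75 and 2.16 on the duodenum arrays, at least 19.9-fold higher, Vsig4 was at least 25.8-fold, Cd5l at least 22.1-fold and Mrc1 5.02-fold higher. Markers shared by all macrophages did not pass: Csf1r averaged 1270.3 ± 260.4 in liver and 707 ± 96.7 in duodenum, Mpeg1 555 ± 84.8 in liver and 356 ± 34.1 in duodenum, Tyrobp 169 ± 50.6 in liver and 244 ± 55.1 in duodenum and Adgre1 84.2 ± 26.7 in liver and 57.4 ± 5.105 in duodenum. Lyz2 (3.13-fold), Cx3cr1 (2.96-fold) and Itgax (3.98-fold), of monocytes, gut macrophages and dendritic cells, were higher in duodenum. Signal shared between the probe sets of Lyz2 and of Lyz1, the Paneth lysozyme given below, was not tested. Marco and Timd4, called toward liver, are weakly measured, and their calls were lost in several alternatives.

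Interferon-stimulated genes were higher in liver in 3 and in duodenum in 5 of 25 cases, both near the shares of all genes. Iigp1, an immunity-related GTPase, gave 7613, 7173 and 7646 on the liver arrays and 694, 283 and 325 on the duodenum arrays, a log2 difference of 4.23 (standard error 0.28, adjusted p = 2.82e-06). Bst2, tetherin, was 9.93-fold and Mx2 4.05-fold higher in liver. Of the oligoadenylate synthetase genes, Oasl2 (11.7-fold), Oas1a (5.29-fold) and Oasl1 (3.49-fold) were higher in duodenum, and Oas2 and Oas3, at low signal, did not pass (differences -0.41 and -2.95, adjusted p = 0.56 and 0.0183). Ifi35 (2.15-fold) and Irf1 (2.41-fold) were also higher in duodenum. Rsad2, Igtp and Ifit1 averaged 887 ± 90.9 in liver and 754 ± 289 in duodenum, 1269 ± 109 in liver and 797 ± 566 in duodenum and 366 ± 71.3 in liver and 572 ± 205 in duodenum, and none passed.

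Innate sensing genes were higher in duodenum in 7 and in liver in 2 of 24 cases, against 18.9% and 13.5% of all genes. The other 15 did not pass, near the share of all genes. Casp1, which activates interleukins, gave 30.2, 40.04 and 40.4 on the liver arrays and 904, 785 and 872 on the duodenum arrays, a log2 difference of -4.54 (standard error 0.15, adjusted p = 3.14e-08), and Il18, one of its substrates, was 5.58-fold higher. Nfkbiz was 8.16-fold, Tnfaip3, a brake on NF-kappaB, 3.56-fold and Tlr3 2.82-fold higher. Cxcl1 (4.88-fold) and Tlr5 (at least 2.19-fold), the flagellin receptor, were higher in liver, Tlr5 not without any 1 of the liver arrays. Nlrp6 averaged 448 ± 14.3 in liver and 569.6 ± 64.9 in duodenum, Nfkbia 2068 ± 333 in liver and 2229 ± 376 in duodenum and Rela 295 ± 17.1 in liver and 212 ± 16.5 in duodenum, and none passed. Tlr4, the endotoxin receptor, gave 20.98, 26.8 and 31.3 on the liver arrays and 24.6, 19.5 and 20.9 on the duodenum arrays, and did not pass either.

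All 11 Paneth and antimicrobial genes were higher in duodenum, with a median of -8.37 (-6.80 at the bound). Lyz1, the Paneth lysozyme, gave 585, 826 and 761 on the liver arrays and 9498, 7203 and 7751 on the duodenum arrays, a log2 difference of -3.50 (standard error 0.15, adjusted p = 1.48e-07). Reg3b and Reg3g, lectins that bind bacteria, were at least 251-fold and at least 129-fold higher, Lypd8 at least 248-fold and Itln1 at least 112-fold. Ang4 was at least 82.6-fold higher. Pla2g2a, a secreted phospholipase, gave 10.9, 6.97 and 15.2 on the liver arrays and 4915, 2435 and 1993 on the duodenum arrays, at least 144-fold higher. Reg3 proteins are also known from pancreas, whose markers were bright on these arrays, and its part in them was not tested.

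The tissue difference was then compared with that of wild-type B6 mice. Of the 4211 genes called in D2, 4177 had the same sign in B6. The 2 strains' differences differed for 381 of 13006 genes (2.93%) at an adjusted p of at most 0.05, 190 with a larger value and 191 with a smaller value in D2, and 244 of the called genes were among them. Of the 109 iron genes 12 passed. Hamp2 averaged 13262 in liver of D2 and 2614 in liver of B6, against 9.72 and 19.2 in duodenum, an interaction of 3.28 (adjusted p = 0.00061) or 2.54 with signals under 20 set to 20. The Hamp2 interaction did not pass with all 24 arrays in the fit (adjusted p = 0.0644). For Hamp these means were 4709, 9916, 9.93 and 7.51, and the interaction did not pass (adjusted p = 0.0899).

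Mt1 and Mt2 were higher in liver in D2 and had the opposite sign in B6. Mt1 averaged 8726 in liver and 3606 in duodenum of D2, and 2322 and 3571 in B6, an interaction of 1.89 (adjusted p = 0.0024). For Mt2 the interaction was 2.54. Ferroportin, Slc40a1, averaged 2053 and 3526 in D2 and 1132 and 4523 in B6, so that the difference toward duodenum was smaller in D2 (1.22, adjusted p = 0.00111). Slc39a14 (0.87), Flvcr1 (0.93), Fbxl5 (1.30) and Ireb2 (0.79) also had larger values in D2, and Ccs (-1.20), Hfe (-0.73), Alad (-0.69) and Abcb8 (-0.90) had smaller ones. The iron genes that passed were thus divided between the directions. Flvcr1, Fbxl5, Hfe, Alad and Abcb8 each lost the call in 9 to 11 of the alternatives, mostly with 1 array left out.

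**Figure D5:**
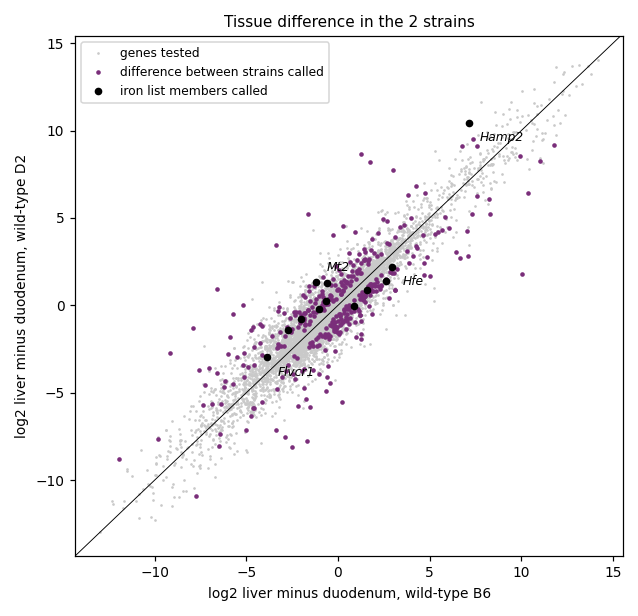
Difference between liver and duodenum on the log2 scale in wild-type B6 (x axis) and wild-type D2 (y axis), 3 arrays per group; grey points are all genes, purple points are the 381 genes whose difference between strains passed and black points are iron list members among them. Most genes follow the diagonal, and Hamp2 and Mt2 lie above it.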

How the data were processed

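RNA of liver and duodenum was hybridized to Affymetrix Mouse Genome 430 2.0 arrays, 1 sample per array. The deposited values are MAS5 signal intensities on a linear scale, scaled by the authors to a common mean of 100; the MAS5 version is not given in the sources used here, and no detection calls were used. Array settings files, also deposited, hold no measurement (other values) and gave only the hybridization run.

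Of 45101 probe sets, 34958 have 1 gene symbol in the platform annotation, 932 several and 9211 none. A probe set was kept with a signal of at least 20 on at least 3 of the 12 arrays of a tissue, which left 28061 probe sets and 13006 genes, each represented by the 1-symbol probe set of highest mean log2 signal. In 4 of 6114 genes with several kept probe sets these were called in opposite directions. Log2 signals were fitted with limma 3.58.1 (lmFit, eBayes with trend; R 4.3.3) on the 6 arrays, with Benjamini-Hochberg adjustment over all kept probe sets. The difference between strains was the interaction in a fit of the 12 wild-type arrays, for which the threshold of the adjusted p was 0.05. Scripts were tested on simulated data.

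Named were, in each direction, the 5 largest differences among genes at 20 or more on all 6 arrays and the 5 brightest genes under 20 in the other tissue, every iron list member, up to 8 bright members of other lists with members called against their list, and for the interaction the 5 largest each way. Further members were named for their known role, after their values were seen. Members and lists were chosen with earlier results of these data known. Motif letters were counted in RefSeq promoters (GRCm38.p6) on both strands. Alternatives were other scalings, filters, floors, thresholds, sample sets, blocks and probe set rules.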

Additional observations from a re-analysis of the deposited data

Results flagged for a closer look

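Tissue differences that differed between wild-type D2 and wild-type B6 were picked out for the genes named above: 67 passed limma's interaction test at an adjusted p of at most 0.05. Each value below is the difference between liver and duodenum in D2 minus that in B6, on the log2 scale, and means are over 3 arrays. Where signals under 20 entered and moved a value, the value with such signals set to 20 is marked "at 20". Of the 67 calls 27 were kept in every alternative of the strain comparison and 40 were lost in at least 1. Over all 13006 genes 2.93% passed, and members of 45 lists were looked at.

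Of the iron genes, Hamp2 (3.28, 2.54 at 20), Mt2 (2.54), Mt1 (1.89), Fbxl5 (1.30), Slc40a1 (1.22), Flvcr1 (0.93), Slc39a14 (0.87) and Ireb2 (0.79) had larger values in D2, and Ccs (-1.20), Abcb8 (-0.90), Hfe (-0.73) and Alad (-0.69) smaller ones. For Hfe the liver means were 462 in D2 and 683 in B6, and for Ccs 1076 and 1847.

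Among genes with a mean signal of at least 100 in a group, those with large positive fitted values were Ctse (7.50, 7.26 at 20), Corin (7.37, 3.52 at 20), St3gal4 (6.83, 6.81 at 20), H2-Q2 (6.60, 6.11 at 20) and the P450 gene Cyp2c39 (6.45, 5.48 at 20). A positive value need not mean more signal in liver of D2. Ctse, cathepsin E, averaged 1514 in liver and 959 in duodenum of D2 and 18.9 and 2124 in B6. St3gal4 averaged 270 in liver and 25.4 in duodenum of D2 and 238 and 2527 in B6, so that the strains parted in duodenum. H2-Q2 was under 20 on every D2 array and averaged 6.09 in liver and 1383 in duodenum of B6. In the other direction were Nlrp12 (-8.23, -6.05 at 20), Ctrc (-6.04, -5.81 at 20), Pla2g2a (-5.57, -5.25 at 20), Nat8f5 (-4.66, -2.08 at 20) and Ugt2b38 (-4.26). Nlrp12 was under 20 on every D2 array and averaged 1324 in liver and 1.36 in duodenum of B6. Ctrc, a pancreatic protease, averaged 4259.9 in duodenum of D2 and 80.1 in duodenum of B6, and Pla2g2a 3114 and 76.5. Other acinar markers were bright in the duodenum of both strains, with summed signals of 40981 to 87025 in D2 and 22024 to 80820 in B6. Brunner gland and gastric-type markers were unequal between the duodenum arrays of the strains, with summed signals of 669, 16280 and 983 in D2 and 1287, 15537 and 15012 in B6. The part of such tissue in these values was not tested. Probe sets can bind unequally where the strains differ in sequence, and the part of this in large values was not tested.

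Among drug-metabolizing genes, Cyp2c29 (2.40), Cyp2c38 (2.16), Cyp2c55 (1.83), Cyp2b10 (1.77), Gstm3 (1.05) and Gsta4 (0.88) had larger values in D2. Nnmt (-4.26, -4.35 at 20), Cyp2c23 (-3.89), Gsta2 (-1.76), Gsta3 (-1.20), Cyp3a13 (-1.14), Ugt2b5 (-1.12) and Ugt2b36 (-0.83) had smaller ones.

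Of the urea cycle and amino acid genes, Fah (-2.18, -1.65 at 20), Ass1 (-2.12, -1.78 at 20), Slc25a15 (-0.91), Asl (-0.80), Cth (-0.79), Otc (-0.77) and Cps1 (-0.60) passed, each with a smaller value in D2. Of bile acid and lipid genes, Acox2 (1.66, 1.54 at 20), Abcc2 (1.05), Nr1h4 (0.93) and Dgat2 (0.73) had larger values, and Cyp7b1 (-2.08, -2.15 at 20), Cd36 (-1.78), Lpl (-1.17) and Acadl (-0.83) smaller ones. Fh1 of the TCA cycle had -0.96 and Prdx2, a peroxiredoxin, 0.52.

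Plasma and immune genes passed with smaller values in D2: Crp (-3.03, -2.36 at 20), Serpina1b (-2.78, -1.12 at 20), H2-Aa (-1.75), Gzma (-1.55, -0.53 at 20 and then not called), Cd5l (-1.36, -0.93 at 20) and Igha (-0.93). C8a had -2.64, but 0.050 at 20. Of cell markers, Muc3 (3.17, 2.21 at 20) was larger, and Mme (-3.75, -3.23 at 20), Stab2 (-2.96, -2.54 at 20), Hspb1 (-2.87), Tff3 (-1.54), Tpm2 (-1.42), Cdh1 (-0.68) and Krt8 (-0.51) were smaller.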

How the results depend on the processing

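The tissue counts stayed within 1.5 times of 1755 and 2456 in the alternatives run, apart from a 4-fold minimum (933 and 1399). Leaving out 1 array in turn gave 1637 to 1740 genes toward liver and 2114 to 2481 toward duodenum. Of the genes named with a fold, Agpat2, Apoa4, Ccr9, Hk1, Hk2, Idh2, Irf1, Otc, Pdk4 and Pros1 lost their call without at least 1 of these arrays, beside those given in the report. No named tissue difference that was called changed sign. Small differences that were not called can change sign with the scaling, as with median centring. Quantile normalization ended the calls of Acadvl, Agpat2, Apob, Cps1, Otc, Gpx1, Gstp1, Glrx5, Iscu, Mt1, Urod, Idh2, Neo1, Smad7 and Hscb among others, and median centring those of Apoa4, Pklr, Txn1, Sult1d1, Ifi35, Irf1, Bmpr1a and Smad1. Setting signals under 20 to 20 ended those of Hk2, Pdk4, Tff2, Atoh8, Marco and Irf1. The hybridization run as a random block, chosen after seeing the data, gave 1649 and 2231, and as a fixed block it was not run since no run held both tissues.

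Deviations of same-numbered liver and duodenum arrays from their group means correlated at 0.024, 0.00062 and 0.013, and those of differently numbered arrays at -0.039 to 0.028. These values cannot show whether a shared number marks 1 mouse, since the tissues of a mouse need not deviate alike. With the replicate block 1703 genes were higher in liver and 2334 in duodenum, and 241 genes differed between strains instead of 381. That count was 577 with 16 added to each signal, 702 with signals under 20 set to 20 and 254 to 347 with 1 array left out. Of the 67 named strain differences, 16 lost the call with the replicate block (Abcb8, Asl, Cd5l, Corin, Cyp2b10, Cyp2c38, Cyp3a13, Fah, Fbxl5, Flvcr1, Gsta3, H2-Aa, Hfe, Igha, Lpl and Prdx2), 26 with all 24 arrays, 9 with quantile normalization, 6 with signals under 20 set to 20 (C8a, Cyp2b10, Gsta3, Gzma, H2-Aa and Lpl), 2 with 16 added (C8a and Gzma) and 14 to 24 with 1 array left out. C8a turned from -2.64 to 0.050 with signals under 20 set to 20, as its duodenum signals are under 20. There is no depth for an array: 3 per group, and signals near background, limit the precision.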
